A study of Mus musculus with 21 samples.

Results

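The genes described here serve the absorption of dietary fat in the small intestine: Apoa1, Apoa4, Apob, Apoc2, Apoc3, Mttp, Fabp1, Fabp2, Dgat1 and Cd36. They were chosen by name, as the probes of the scanner files other than control spots whose gene name is one of these 10. That rule found all 10 of these genes among 34844 gene names, with 12 of the array's 55681 probes: 2 each for Apob and Apoc3 and 1 for each other gene. The 2 probes of a gene are called the brighter and the dimmer, by their mean signal in the sample dye. RNA came from mouse organoids, self-renewing cultures of gut epithelium started from crypts of the small intestine. All of them carried a doxycycline-inducible human beta-catenin that lacks its N-terminal part (tet-O, myc-tagged ΔN89) and the M2-rtTA activator driven by the ROSA26 promoter, so cells without the transgene are not among these groups. On 7 arrays (letters A to G) cultures were kept in doxycycline with vehicle. On the others, for 24 h, they received doxycycline with 2 µM compound 2 (A to C), 2 µM compound 9 (A to C) or 2 µM compound 6 (D to G), or doxycycline was removed (withdrawal, D to G). Per the labels, the compounds inhibit CDK8 and CDK19, kinases that associate with the Mediator complex, and belong to a 3,4,5-trisubstituted pyridine series.

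Enterocytes take up fatty acids and monoglycerides from the gut lumen, bind them to small cytosolic proteins and rebuild them into triglyceride in the endoplasmic reticulum. Microsomal triglyceride transfer protein loads this fat onto apolipoprotein B, and the particle leaves the cell as a chylomicron that also carries apolipoproteins of the A and C classes. These genes are a hallmark of mature villus enterocytes, whereas crypts with strong beta-catenin activity hold stem and progenitor cells.

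The probe sequences printed here are those of Apoa1, Apob and Dgat1, whose changes carry the results, and of Apoa4, whose change by the ratio differs widely from that in the sample dye. Each is the 60-base sequence printed in the scanner files, 5′ to 3′, with mm9 coordinates. The letters are lower case throughout, since no stretch of a probe is singled out.
Apoa1 (chr9:46037921-46037980, plus strand): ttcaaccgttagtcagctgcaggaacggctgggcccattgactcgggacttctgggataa
Apoa4 (chr9:46049661-46050404, plus strand): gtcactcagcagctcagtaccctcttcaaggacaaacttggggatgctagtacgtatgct
Apob, brighter (chr12:8012697-8012756, plus strand): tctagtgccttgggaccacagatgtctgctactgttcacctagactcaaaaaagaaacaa
Dgat1 (chr15:76333128-76333274, minus strand): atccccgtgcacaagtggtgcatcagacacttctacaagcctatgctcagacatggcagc
The Apoa4 and Dgat1 probes span 744 and 147 bases of genome, more than their own 60 bases, so they cross a splice junction. The Apoa1 probe was printed on 10 spots of each array and the other probes on 1.

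The 3 genes Apoa1, Apoc3 and Apoa4 are neighbours. Their 4 probes lie within 12484 bases of chromosome 9 (chr9:46037921-46050404, mm9). The brighter Apoc3 probe (chr9:46041134-46041193, minus strand) starts at base 464 of its transcript and the dimmer (chr9:46043606-46043665, minus strand) at base 54 of another Apoc3 transcript model, so they read different parts of the gene. The dimmer Apob probe (chr12:8023194-8023253) starts at base 13457 of the long Apob transcript and the brighter at base 4473. The probes of Mttp (chr3:137753868-137753927), Fabp2 (chr3:122602276-122602335), Fabp1 (chr6:71154906-71154965), Apoc2 (chr7:20257027-20257086) and Cd36 (chr5:17288600-17288659) each lie at 1 place in mm9.

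RefSeq promoters (assembly GRCm38.p6) were on hand for 8 of the 10 genes, all but Apoc3 and Dgat1. The 250 bases before the start of these 8 genes were searched on both strands for 4 short motifs. AGGTCA is a nuclear receptor half-site. AAGTCCA is part of the motif of the liver and gut receptor HNF4A. AGATAA is read by factors of the GATA family, and TATAAA is the letters of the TATA box. AGGTCA was found for 3 of 8 (Apoc2, Cd36 and Fabp1), against 14% of all 32851 promoters, and TATAAA for 2 of 8 (Apob and Fabp1; 12.4% of all). AAGTCCA and AGATAA were in none of the 8, and in 3.36% and 9.99% of all promoters. The sequences of Apob, whose probes rose after withdrawal, and of Fabp1, which has the most matches, are printed with every match in capitals.
Apob (chr12:7977427-7977676, plus strand): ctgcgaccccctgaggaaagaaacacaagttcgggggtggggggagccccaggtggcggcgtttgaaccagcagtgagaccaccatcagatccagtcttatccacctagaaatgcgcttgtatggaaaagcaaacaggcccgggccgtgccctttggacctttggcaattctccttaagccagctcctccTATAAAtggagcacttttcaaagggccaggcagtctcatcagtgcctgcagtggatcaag
Fabp1 (chr6:71199629-71199878, plus strand): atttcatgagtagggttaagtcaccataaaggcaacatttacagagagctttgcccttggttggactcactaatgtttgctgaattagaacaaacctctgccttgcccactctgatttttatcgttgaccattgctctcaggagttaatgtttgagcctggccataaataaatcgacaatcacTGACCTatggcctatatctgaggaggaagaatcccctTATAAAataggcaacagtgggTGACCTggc
In Fabp1, TATAAA lies 30 to 25 bases before the start and TGACCT, which is AGGTCA on the other strand, at 67 to 62 and at 9 to 4 bases before it. In Apob, TATAAA lies 60 to 55 bases before the start.

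Each array held sample RNA in Cy3 and the same Universal Mouse Reference RNA in Cy5, without dye swaps, and the values below are log2 ratios of sample over reference unless another scale is named. Of all spots, 42.6% to 51.9% per array stood well above background in the sample dye, and 29631 probes passed the filter. All 12 probes stood well above background in both dyes on all 21 arrays and none was saturated; the number of arrays limits the precision. The 22 enterocyte markers (Alpi, Sis, Lct and others) were likewise above background on every array. Arrays A to C and D to G form sets with different scans and slides, and set and scan cannot be told apart. The labels do not say whether letters are separate cultures or animals, so a p-value speaks only of the spread among these arrays, which may be technical. A test is called passed at an adjusted p under 0.05 from limma, with Benjamini-Hochberg adjustment over all 29631 probes. Where the letter was also fitted as a replicate block, the SE after ± is from the fit without it unless named. RNA from whole cultures does not tell fewer cells of a type from less RNA per cell.

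**Figure D1:**
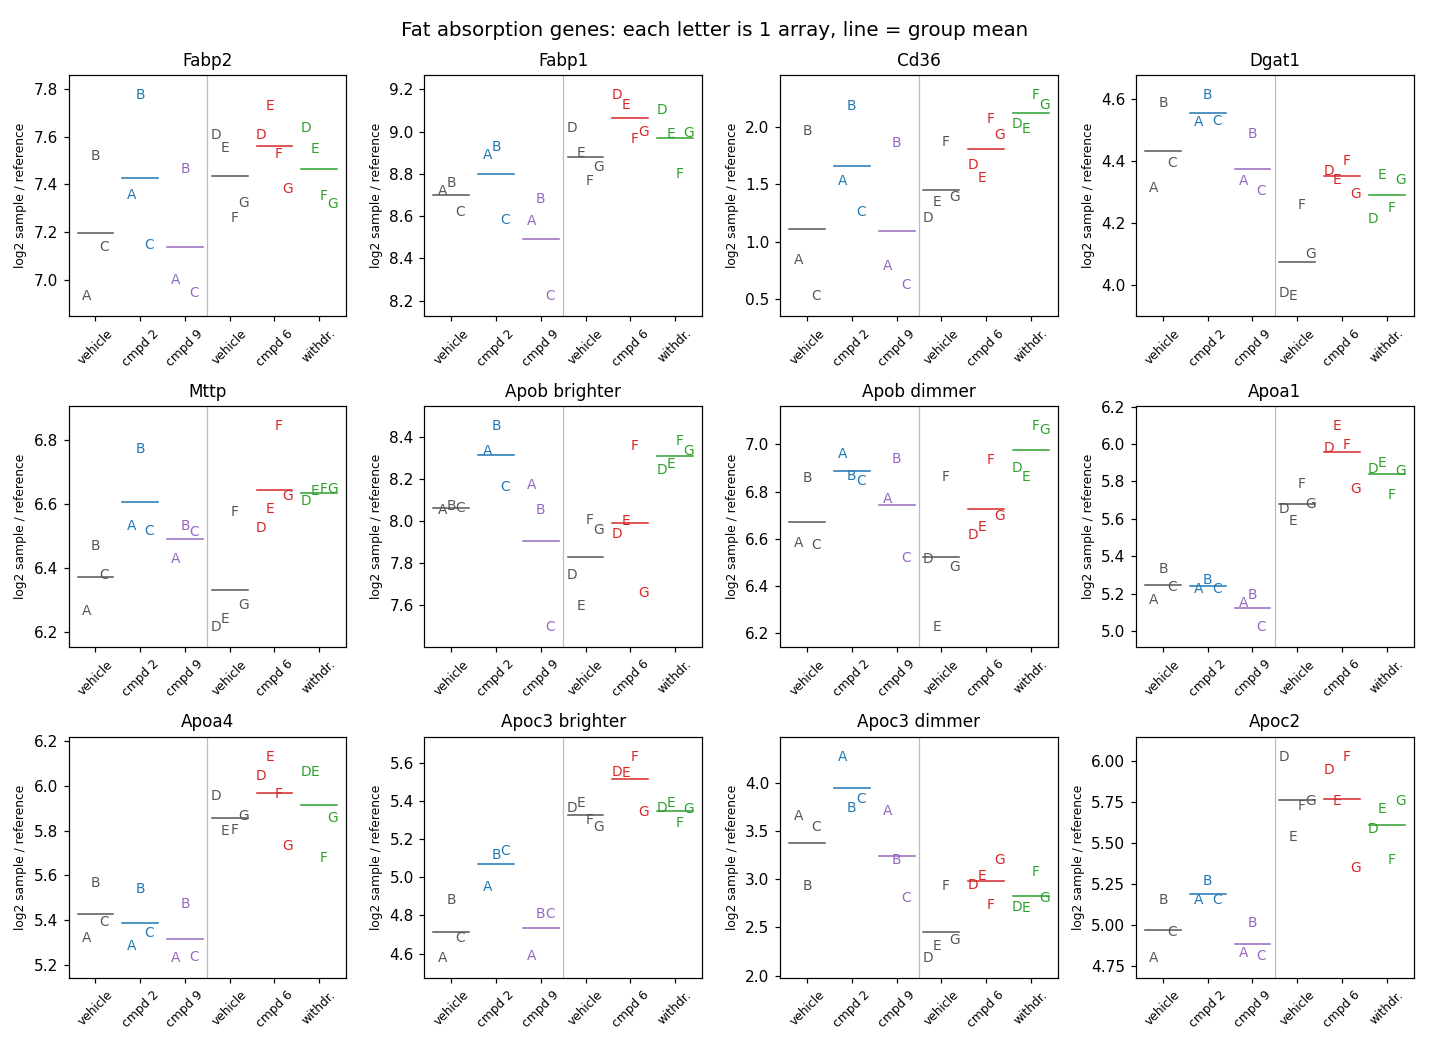
Log2 ratio of sample over reference for the 12 probes, 1 panel a probe, with each array drawn as its letter and each group's mean as a line; the left 3 groups are letters A to C and the right 3 letters D to G. Mttp, both Apob probes and Cd36 lie higher after withdrawal than in most vehicle arrays of the same letters, and Cd36 in letter B stands above A and C in all 3 groups.

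Before any treatment was compared, the vehicle arrays of the sets differed at some of these probes, about as often as at probes in general. Between vehicles D to G and vehicles A to C, 6 of 12 probes passed, against 51.4% of all probes tested, and 8 of 12 did not overlap, against 48.2%. Apoa1, the main protein of high-density lipoprotein, was 5.17, 5.33 and 5.23 in vehicles A to C and 5.65, 5.59, 5.78 and 5.68 in vehicles D to G, without overlap (0.43 ± 0.08 higher, SE, adjusted p = 0.000169). Apoa4, an apolipoprotein of chylomicrons made mainly in the intestine, was also higher in D to G, by 0.43 ± 0.11 (adjusted p = 0.00287). Apoc2, the activator of lipoprotein lipase, was higher by 0.79 ± 0.14 (adjusted p = 0.000126).

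Dgat1, which adds the last fatty acid to triglyceride, went the other way, at 4.31, 4.59 and 4.39 in A to C and 3.97, 3.96, 4.26 and 4.10 in D to G (change of -0.36 ± 0.08, adjusted p = 0.0012). The 2 probes of Apoc3, an inhibitor of lipoprotein lipase, disagreed. The brighter was higher in D to G by 0.62 ± 0.09 (adjusted p = 1.05e-05) and the dimmer changed by -0.92 ± 0.21 (adjusted p = 0.00139). In the sample dye alone several of these signs turned: Apoa1 differed by -2.06 ± 0.38 and Apoa4 by -1.26 ± 0.36 (adjusted p = 0.000194 and 0.0066), while Dgat1 kept its direction at -0.78 ± 0.17 (adjusted p = 0.00113). Treatment effects are therefore taken only within a set from here on.

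The reference RNA is the same on every array, yet its signal at some of these probes was not. At Apoa1 the net Cy5 intensity ran from 440 in vehicle D to 6489 in compound 2 B, and the net Cy3 intensity from 8564 in vehicle D to 123608 in compound 2 B. Over the 12 arrays D to G, after quantile normalisation within each dye, Cy3 and Cy5 at this probe correlated at r = 0.99. In the same arrays r was 0.98 for Apoa4, 0.97 for the brighter Apoc3 probe, 0.96 for the dimmer and 0.93 for the brighter Apob probe, 0.88 for Dgat1 and 0.87 for Mttp. For the fatty acid transporter Cd36 it was 0.05, for Fabp1, the liver-type fatty acid-binding protein, 0.22 and for the dimmer Apoc3 probe 0.30. Over all probes tested the median was 0.27, and 2.48% reached 0.9. Over the 9 arrays A to C, r was 0.97 for the brighter Apoc3 probe, 0.94 for Apoa4 and 0.87 for Apoa1, but 0.40 for the dimmer Apob probe and -0.51 for Fabp1, with a median of 0.39 over all probes. These correlations are descriptions over arrays that share groups, slides and letters.

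Within an array the 10 spots of the Apoa1 probe agreed closely, with an SD of 0.03 to 0.12 in log2 Cy5. Between arrays D to G the SD of Cy5 at Apoa1 was 0.74, at Apoa4 0.73 and at Cd36 0.05, against a median of 0.09 over all probes. A ratio sets the shared part of these movements aside, and the sample dye alone keeps it. Which of them lies nearer the change in transcript was not tested, so both are given for each result that they affect.

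**Figure D2:**
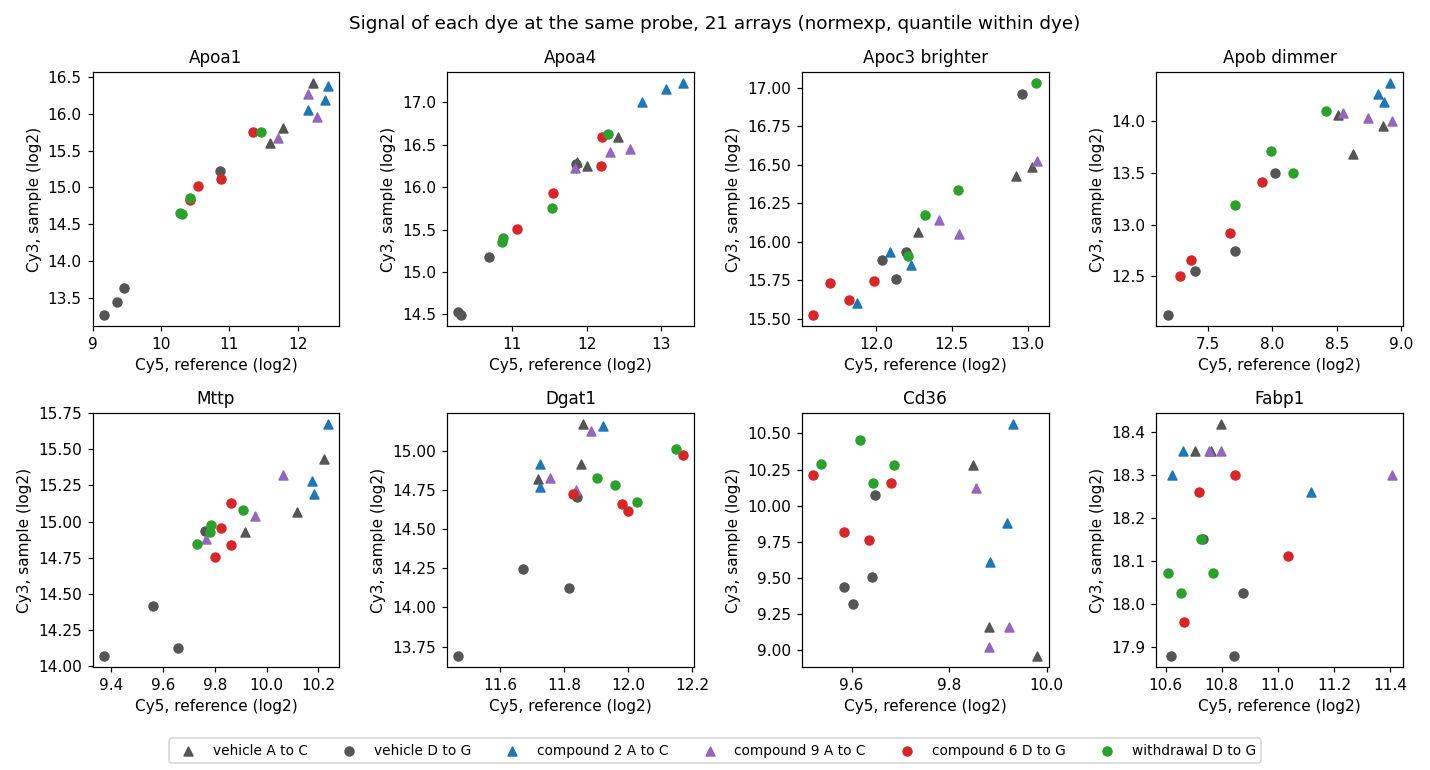
Log2 signal of the sample dye (vertical) against the reference dye (horizontal) at 8 of the probes on the 21 arrays, after normexp correction and quantile normalisation within each dye; triangles are letters A to C and circles letters D to G. At Apoa1, Apoa4, the brighter Apoc3 and the dimmer Apob probe the dyes rise together, whereas at Cd36 and Fabp1 they do not.

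Removal of doxycycline asks what these genes do when the mutant beta-catenin is switched off. Apob and Mttp, the pair that builds the chylomicron core, rose modestly after withdrawal, and none of the 12 probes fell. By the ratio 3 of 12 probes passed, all higher, against 18.8% of all probes tested, of which those higher make up 6.79% of the tested probes. The median change of the 12 was 0.19, against -0.01 over all probes, and 11 of 12 changes were above 0.

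The dimmer probe of Apob, the structural protein of the chylomicron, stood at 6.51, 6.22, 6.86 and 6.48 in vehicles D, E, F and G and at 6.90, 6.86, 7.08 and 7.06 after withdrawal. Vehicle F was the highest vehicle and equalled the lowest withdrawal array to the second decimal. The change was 0.45 ± 0.12 (adjusted p = 0.0119), which is 1.37-fold, higher in 4 of 4 letters. The brighter Apob probe was 7.75, 7.60, 8.005 and 7.96 in vehicle and 8.24, 8.27, 8.38 and 8.33 after withdrawal. These groups did not overlap, which held for 3 of 12 probes and 16% of all probes, and the change was 0.48 ± 0.14 (adjusted p = 0.0222), which is 1.39-fold. Mttp, which lipidates Apob, was 6.22, 6.24, 6.58 and 6.28 in vehicle and 6.61, 6.64, 6.65 and 6.65 after withdrawal. Again vehicle F lay highest and close below the withdrawal arrays. The Mttp change was 0.31 ± 0.09 (adjusted p = 0.0191), 1.24-fold and higher in 4 of 4 letters.

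Cd36 showed the largest withdrawal change of the 12, and its test depended on how the letters were treated. It was 1.21, 1.35, 1.87 and 1.39 in vehicle and 2.02, 1.98, 2.27 and 2.19 after withdrawal, without overlap. The change of 0.67 ± 0.28 did not pass without the letters (adjusted p = 0.108) and passed with the letter as a replicate block (adjusted p = 3.89e-05). In the sample dye alone it was 0.71 ± 0.28, with a reference change of 0.00 ± 0.04. Dgat1 was 3.97, 3.96, 4.26 and 4.10 in vehicle and 4.21, 4.35, 4.25 and 4.34 after withdrawal. Its groups overlap through vehicle F, and its change of 0.22 ± 0.08 had an adjusted p of 0.053, or 0.0161 with the block. With the block 5 of 12 probes passed, against 36% of all probes.

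The remaining members did not pass by the ratio. Apoa1 gave 0.16 ± 0.07, Apoa4 0.06 ± 0.10, the dimmer Apoc3 probe 0.38 ± 0.20 and the brighter 0.02 ± 0.08 (adjusted p = 0.131, 0.733, 0.196 and 0.898). Fabp1 and Fabp2, the liver-type and intestinal cytosolic fatty acid-binding proteins, gave 0.09 ± 0.10 and 0.03 ± 0.15, and Apoc2 gave -0.15 ± 0.13 (adjusted p = 0.568, 0.919 and 0.462). None of these 7 probes passed with the block either.

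In the sample dye alone 5 of 12 probes rose after withdrawal, against 19.7% of all probes: Apoa1, both Apob probes, Mttp and Dgat1. Apoa1 in Cy3 was 13.27, 13.43, 15.22 and 13.63 in vehicles D to G and 14.64, 14.65, 15.75 and 14.86 after withdrawal (1.09 ± 0.35, adjusted p = 0.0344). Its Cy5 signal, from the same reference RNA, was 9.16, 9.36, 10.86 and 9.46 in the vehicles and 10.31, 10.28, 11.46 and 10.42 after withdrawal (0.91 ± 0.32, adjusted p = 0.42). In both dyes every withdrawal array lay above the vehicle of its letter. With the letter as a block the Cy5 change at Apoa1 passed too (adjusted p = 0.0041), in a test that 0.371% of all probes passed. The block also brought Apoa4 past the threshold in Cy3 alone (0.67, adjusted p = 0.000566), with a Cy5 change of 0.61 (adjusted p = 0.0853), and gave 8 of 12 probes in Cy3, against 37.1% of all.

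Single arrays moved these counts. Without vehicle E none of the 12 passed, and without vehicle D 1 did, the dimmer Apob probe, with changes of 0.36 and 0.40 for the Apob probes and 0.28 for Mttp when E was left out (adjusted p = 0.0591, 0.0919 and 0.0715). Without vehicle F 6 passed. Over the 8 fits that left out 1 array of either group, the dimmer Apob call held in 7, the brighter in 4 and Mttp in 5. Under other ways of processing or fitting, the dimmer Apob change was 0.11 to 0.89 and passed in 10 of 13. The brighter was 0.27 to 0.80 (11 of 14) and Mttp 0.29 to 0.57 (13 of 14). Within slide 3, which held vehicle E and withdrawal D, E and F, the changes were 0.72 and 0.70 for the dimmer and brighter Apob probes and 0.39 for Mttp. Within slide 5 they were 0.37, 0.46 and 0.25.

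**Figure D3:**
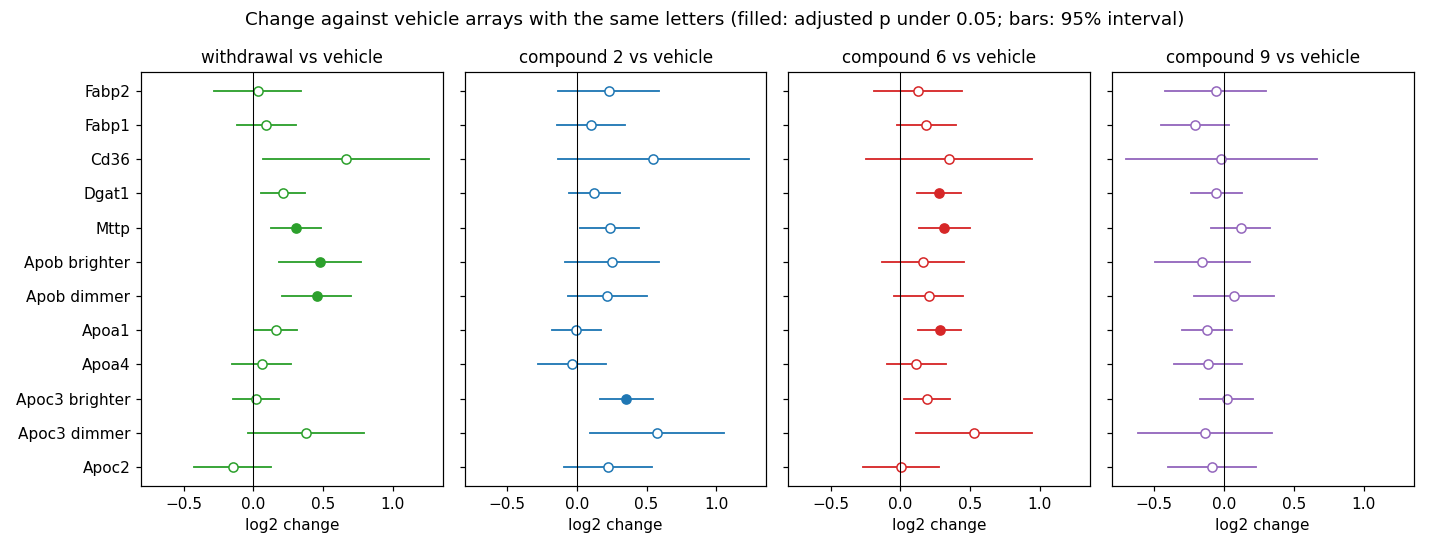
Log2 change of each probe against vehicle arrays with the same letters, with 95% intervals; filled points passed at an adjusted p under 0.05. Filled points are both Apob probes and Mttp after withdrawal, the brighter Apoc3 with compound 2, and Apoa1, Mttp and Dgat1 with compound 6; no point is filled for compound 9.

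Compound 6 asks whether a CDK8/19 inhibitor moves these genes while doxycycline is kept in the culture. Mttp, Dgat1 and Apoa1 rose and none of the 12 probes fell. By the ratio 3 of 12 probes passed, against 23.3% of all probes tested, with higher calls making up 10.7%. All 12 changes lay above 0, from 0.01 to 0.53 with a median of 0.20, against a median of -0.03 over all probes.

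Apoa1 was 5.65, 5.59, 5.78 and 5.68 in vehicles D to G and 5.98, 6.10, 6.00 and 5.76 with compound 6. Only compound 6 G fell within reach of the vehicles, below vehicle F. The change was 0.28 ± 0.07 (adjusted p = 0.00944), 1.22-fold and higher in 4 of 4 letters. Mttp was 6.22, 6.24, 6.58 and 6.28 in vehicle and 6.52, 6.58, 6.84 and 6.62 with compound 6. The F arrays were the highest of both groups, and vehicle F overlapped compound 6 D. Its change was 0.31 ± 0.09 (adjusted p = 0.0134), 1.24-fold. Dgat1 was 4.37, 4.34, 4.40 and 4.29 with compound 6, all above the highest vehicle at 4.26. It was the single probe of the 12 without overlap, as for 19.2% of all probes, and rose by 0.28 ± 0.08 (adjusted p = 0.0125), 1.21-fold.

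The letter as a block raised the count for compound 6 to 7 of 12, against 38.6% of all probes. It added the dimmer and brighter Apoc3 probes (0.53 ± 0.20 and 0.19 ± 0.08, adjusted p = 0.0614 and 0.0918 without the block, 0.0127 and 0.0219 with it). It also added Fabp1 (0.19 ± 0.10, adjusted p = 0.201 and 0.0187) and Cd36 (0.35 ± 0.28, adjusted p = 0.411 and 0.00464). Fabp1 was 9.02, 8.90, 8.77 and 8.83 in vehicle and 9.17, 9.13, 8.96 and 9.00 with compound 6, so every treated array exceeded its own letter while the groups overlapped. Apob did not pass by either probe (0.20 ± 0.12 and 0.16 ± 0.14, adjusted p = 0.234 and 0.448), nor did Apoa4 (0.11 ± 0.10, adjusted p = 0.462), Fabp2 (0.13 ± 0.15, adjusted p = 0.592) or Apoc2 (0.01 ± 0.13, adjusted p = 0.979). Without compound 6 F the Mttp change was 0.25 (adjusted p = 0.0566), and without vehicle E the Dgat1 change was 0.24 (adjusted p = 0.0501), so each then missed the threshold. Without vehicle F 5 of 12 probes passed. With the spread taken from the compound 6 and vehicle D to G arrays alone, in place of all 21 arrays, none of the 3 calls held (adjusted p = 0.0697 for Apoa1, 0.0824 for Mttp and 0.0605 for Dgat1, at the same changes).

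In the sample dye alone 6 of 12 probes passed with compound 6, against 22.5% of all, and 1 of them fell. Apoa1 rose by 1.29 ± 0.35, Apoa4 by 0.95 ± 0.33, Mttp by 0.53 ± 0.17, Dgat1 by 0.55 ± 0.16 and the dimmer Apoc3 probe by 0.66 ± 0.20 (adjusted p = 0.0122, 0.0452, 0.0265, 0.0191 and 0.0221). Apoc2 changed by -0.48 ± 0.14 (adjusted p = 0.0172), where the ratio gave 0.01. The reference dye rose by 1.09 ± 0.32 at Apoa1 and 0.97 ± 0.35 at Apoa4, and with the block 9 of 12 probes passed in Cy3 (38% of all) and these 2 of 12 in Cy5 (adjusted p = 0.000253 and 0.0018; 0.786% of all probes). At Mttp and Dgat1 it moved by 0.25 ± 0.08 and 0.30 ± 0.08, and at the dimmer Apoc3 probe by -0.00 ± 0.07.

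At the brighter Apoc3 probe the scales part in sign. With compound 6 its ratio was 0.19 ± 0.08 higher, its Cy3 signal changed by -0.48 ± 0.23 and its Cy5 signal by -0.56 ± 0.21. No Cy3 or Cy5 test of it passed without the block (adjusted p = 0.157 and 0.674), and with the block the Cy3 change did (adjusted p = 0.0176). The direction of Apoc3 by this probe is therefore not settled with compound 6, while its dimmer probe gave 0.53 by the ratio and 0.66 in Cy3.

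**Figure D4:**
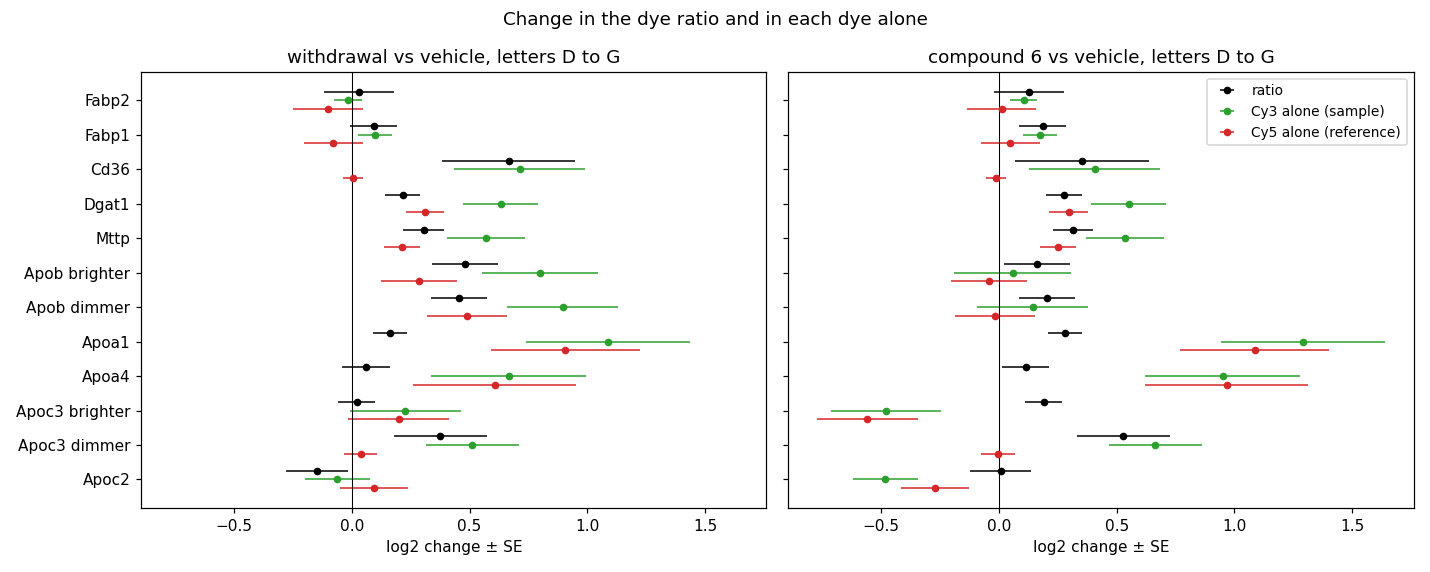
Log2 change ± SE in the ratio (black), in the sample dye alone (green) and in the reference dye alone (red) for the 12 probes after withdrawal and with compound 6, letters D to G. At Apoa1 and Apoa4 the green and red points lie far to the right of the black, and at Cd36 and the dimmer Apoc3 probe the red point sits within 0.04 of 0.

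Compound 2, of the same pyridine series and given at the same dose and time in letters A to C, changed 1 of 12 probes by the ratio, against 4.42% of all probes tested, or 2.76% counting higher calls. That probe was the brighter of Apoc3, higher by 0.35 ± 0.09 (adjusted p = 0.0313), 1.28-fold. It was 4.58, 4.88 and 4.68 in vehicles A to C and 4.95, 5.12 and 5.14 with compound 2. All 3 treated arrays lay above all 3 vehicles, and 4 of 12 probes were without overlap, as were 24.7% of all probes. The dimmer Apoc3 probe was 3.65, 2.93 and 3.54 in vehicle and 4.27, 3.73 and 3.83 with compound 2 (0.57 ± 0.23, adjusted p = 0.189, or 0.04 with the block). Here too the groups were apart. The call of the brighter probe was lost without compound 2 B or C and without vehicle A or C, with changes of 0.29 to 0.34 (adjusted p = 0.0969 to 0.16). It was also lost with the spread taken from the compared arrays alone (adjusted p = 0.123).

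On the sample dye alone the brighter Apoc3 probe went the other way with compound 2: its Cy3 signal was 16.48, 16.06 and 16.42 in vehicles and 15.85, 15.93 and 15.60 with compound 2. That is a change of -0.53 ± 0.27 (adjusted p = 0.347, or 0.0462 with the block), beside a Cy5 change of -0.68 ± 0.25 (adjusted p = 0.842). By the log ratios of the scanner software the same probe changed by -0.02 (adjusted p = 0.978). The dimmer probe gave 0.57 on both scales (adjusted p = 0.189 by the ratio and 0.198 in Cy3), with a Cy5 change of 0.02 ± 0.08. None of the 12 probes passed in Cy3 alone without the block, against 4.6% of all, and 5 did with it, against 15.8%.

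With the block 4 of 12 probes passed for compound 2, against 14.7% of all probes: both Apoc3 probes, Mttp and Cd36. Mttp was 6.27, 6.47 and 6.38 in vehicle and 6.53, 6.77 and 6.51 with compound 2, without overlap (0.23 ± 0.10, adjusted p = 0.225, or 0.0403 with the block). Cd36 was 0.84, 1.96 and 0.52 in vehicle and 1.53, 2.18 and 1.26 with compound 2. Letter B was high in both groups, so the groups overlapped although every letter rose (0.55 ± 0.33, adjusted p = 0.442, or 0.00162 with the block). Apob gave 0.22 ± 0.14 and 0.25 ± 0.16, Fabp2 0.23 ± 0.17, Apoc2 0.22 ± 0.15, Dgat1 0.13 ± 0.09 and Fabp1 0.10 ± 0.12, none of them past the threshold. Apoa1 and Apoa4 gave -0.00 ± 0.08 and -0.04 ± 0.12.

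Apoa4 with compound 2 repeats the pattern of both dyes. Its Cy3 signal was 16.24, 16.30 and 16.60 in vehicle and 17.16, 17.01 and 17.22 with compound 2, and its Cy5 signal 12.005, 11.87 and 12.42 against 13.07, 12.74 and 13.29. Both dyes were higher on every treated array (0.75 ± 0.38 and 0.94 ± 0.40). With the block each passed (adjusted p = 0.00182 in Cy3, and 0.0154 in Cy5, a test that 0.273% of all probes passed), while the ratio was flat.

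Compound 9, the other compound in letters A to C, changed none of the 12 probes and, by limma, none of the 29631 probes tested (0%). At an unadjusted p under 0.05 no member stood out: the smallest was 0.0929, for Fabp1. The 12 changes ran from -0.21 ± 0.12 for Fabp1 to 0.12 ± 0.10 for Mttp, with a median of -0.07, and 9 of 12 were below 0. In none of the 12 were the groups apart, against 5.55% of all probes. Cd36 with compound 9 was 0.79, 1.86 and 0.62, again high in letter B as in the vehicle (-0.02 ± 0.33, 95% interval -0.71 to 0.67). With the block the count stayed 0 of 12, against 0.00337% of all probes, and in Cy3 alone it was also 0. The 95% intervals were -0.09 to 0.33 for Mttp and -0.24 to 0.13 for Dgat1, so small changes of either are within reach of these data.

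Compounds 2 and 9 share slides and letters. Their difference is taken without the vehicles, which do enter the estimate of the spread. All 12 probes were lower with compound 9 than with compound 2, with a median of -0.30, and 1 passed, against 4.01% of all probes (2.76% counting lower calls): the brighter Apoc3 probe (-0.33 ± 0.09, adjusted p = 0.0447). It was 4.59, 4.81 and 4.81 with compound 9, all below the compound 2 arrays, and 5 of 12 probes were apart in this way, against 23.7% of all. In Cy3 alone its difference was 0.44 (adjusted p = 0.523), of the opposite sign. The call was lost in all 6 fits that left out 1 array of either compound, with differences of -0.39 to -0.26, and kept in 5 of 13 alternatives. With the block 5 of 12 passed, against 13.4% of all: both Apoc3 probes, Fabp1 (-0.30 ± 0.12, adjusted p = 0.172 and 0.00629), Fabp2 (-0.29 ± 0.17, adjusted p = 0.468 and 0.0187) and Cd36 (-0.57 ± 0.33, adjusted p = 0.446 and 0.00134).

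The effects of compound 6 and of the others come from different sets and were compared as differences of changes. Against compound 2 no probe of the 12 differed by limma, compared with 0.631% of all probes (with the block 0 of 12, against 8.53%), with 1 at an unadjusted p under 0.05: Apoa1 (0.29 ± 0.11, adjusted p = 0.237, 95% interval 0.05 to 0.52). For Mttp the interval of the difference was -0.20 to 0.36 and for Dgat1 -0.09 to 0.39. Against compound 9 the Apoa1 effect of compound 6 was higher by 0.40 ± 0.11 (adjusted p = 0.0401), the single probe of 12 that passed, against 5.65% of all (3.33% counting higher calls). With the block Fabp1 (0.39, block SE 0.09, adjusted p = 0.0065) and Dgat1 (0.33, block SE 0.10, adjusted p = 0.0276) passed as well, giving 3 of 12 against 19.3%. The Apoa1 call was lost in 12 of 14 fits that left out 1 array, with changes of 0.35 to 0.44, and kept without compound 6 G or vehicle F.

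Compound 6 and withdrawal share letters and vehicles, and slides only in part: both groups have arrays on slides 3 and 5, and compound 6 F lies on slide 4. No probe of the 12 differed between them without the block by limma, against 13.5% of all probes, though 3 had an unadjusted p under 0.05: both Apob probes, lower with compound 6 by the ratio (-0.25 ± 0.12 and -0.32 ± 0.14, adjusted p = 0.18 and 0.149), and the brighter Apoc3 probe (0.17 ± 0.08, adjusted p = 0.173). With the block these 3 and Cd36 (-0.31, block SE 0.09, adjusted p = 0.0118) passed, against 30.7% of all. In Cy3 alone the dimmer Apob probe was lower with compound 6 by -0.75 (adjusted p = 0.0388), in the same direction. The brighter Apoc3 probe turned to -0.71 (adjusted p = 0.0496) and Apoc2 to -0.42 (adjusted p = 0.0472), so 3 of 12 passed there, against 15% of all. Mttp hardly differed between withdrawal and compound 6 (0.01 ± 0.09, 95% interval -0.17 to 0.19).

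Fabp1 and Fabp2 call for a remark on scale. Over all arrays no tested probe was brighter in Cy3 than Fabp2 and 0.0169% were brighter than Fabp1. Quantile normalisation holds such a probe to a narrow range, so a small change in Cy3 alone carries little information. Both still differed in Cy3 between the vehicles of the sets (-0.39 and -0.17, adjusted p = 0.000423 and 0.0357). With compound 6 the Cy3 change of Fabp1 passed with the block (0.17, adjusted p = 0.0271). The reference moved as well: over arrays A to C the SD of Cy5 was 0.25 and 0.30, against a median of 0.08 over all probes. Which scale lies nearer the transcript was not tested for this pair either. By the ratio Fabp2 passed in no comparison with vehicle, with changes of -0.06 to 0.23.

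Among themselves the members varied together to differing degrees. The change of each array from its vehicle mean correlated over 21 arrays at 0.86 between Apoa1 and Dgat1, 0.84 between Mttp and Dgat1 and 0.81 between the 2 Apob probes. Apoc2 with the dimmer Apoc3 probe gave -0.13. The mean of the members against its own vehicle mean was 0.21, 0.22, 0.12 and 0.20 after withdrawal (D, E, F and G), 0.22, 0.22, 0.32 and 0.04 with compound 6, 0.16, 0.37 and 0.08 with compound 2 (A, B and C) and -0.11, 0.13 and -0.22 with compound 9. Vehicle B lay at 0.21 on the same scale, as high as most treated arrays. Of 13309 other genes, those whose profile over the 21 arrays was most like the mean of the members were Anxa13 (r = 0.93), an annexin of the intestinal epithelium, Cyp2j8 (0.92), Clint1 (0.90), Hkdc1 (0.90) and Mall (0.90). All of these correlations share groups and letters and are given as descriptions.

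The other genes of the pathway, 33 named for uptake, re-esterification, chylomicron assembly and lipid storage, were all measured. After withdrawal 11 rose, 1 fell and 21 did not pass, with a median of 0.13. Over all probes 6.79% rose after withdrawal, 10.7% with compound 6 and 2.76% with compound 2. Rises and falls together made up 18.8%, 23.3% and 4.42% of all probes, in that order. The counts of this and the following lists stand beside those shares. Agpat9, a glycerol-phosphate acyltransferase, rose by 0.66 ± 0.09 (adjusted p = 0.000156), Slc27a4, a fatty acid transport protein, by 0.47 ± 0.09 (adjusted p = 0.0022) and Apobec1, which edits the Apob transcript, by 0.46 ± 0.12 (adjusted p = 0.0112). Dgat2, the second acyltransferase of triglyceride synthesis, rose by 0.44 ± 0.13 (adjusted p = 0.0193), and Gpam, the mitochondrial acyltransferase of its first step, fell by 0.39 on the log2 scale (SE 0.10, adjusted p = 0.00932).

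With compound 6, 12 of these 33 rose and none fell, with a median of 0.13. P4hb, the disulfide isomerase that partners Mttp, rose by 0.70 ± 0.07 (adjusted p = 2.32e-06), Dgat2 by 0.67 ± 0.13 (adjusted p = 0.000923), Lpin2, a phosphatidate phosphatase, by 0.60 ± 0.16 (adjusted p = 0.0132; another Lpin2 probe gave 0.20) and Scarb1, a lipoprotein receptor of the brush border, by 0.55 ± 0.08 (adjusted p = 0.000107). With compound 2, 5 rose and none fell, with a median of 0.23: Gpam (0.73 ± 0.11, adjusted p = 0.000769), Scarb1 (0.70 ± 0.09, adjusted p = 0.000204), Mia3 (0.46 ± 0.08, adjusted p = 0.00169) and Sar1a (0.42 ± 0.09, adjusted p = 0.00788), both of the export machinery of the endoplasmic reticulum, were highest. Another Sar1a probe gave 0.16. With compound 9 none passed, and the median was -0.01. Gpam thus passed in opposite directions after withdrawal and with compound 2, against different vehicles.

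Of 15 other apolipoproteins and fatty acid-binding proteins 12 passed the filter, and Apoa5, Fabp4 and Fabp7 did not. Apoa2 rose after withdrawal (0.25 ± 0.09, adjusted p = 0.0456) and with compound 6 (0.51 ± 0.09, adjusted p = 0.000388), and Fabp5, the epidermal-type binding protein, with compound 6 (0.85 ± 0.20, adjusted p = 0.00543). With compounds 2 and 9 none of the 12 passed. Of 20 fatty acid oxidation genes, Acaa1b, a peroxisomal thiolase, rose after withdrawal (0.42 ± 0.11, adjusted p = 0.0137) and Cyp4a10, a fatty acid hydroxylase, fell (-0.81 ± 0.18, adjusted p = 0.00424). With compound 6, 2 rose (Acaa1b and Cpt2) and 3 fell: Acadl (-0.47 ± 0.14, adjusted p = 0.0182), Hadhb (-0.41 ± 0.13, adjusted p = 0.0302) and Acadvl (-0.31 ± 0.10, adjusted p = 0.0254), all enzymes of mitochondrial beta-oxidation. None passed with compound 2.

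Among 27 transcription factors known to act on enterocyte lipid genes, Gata6 rose in 3 comparisons: by 0.31 ± 0.07 after withdrawal (adjusted p = 0.00417), 0.58 ± 0.08 with compound 2 (adjusted p = 0.000255) and 0.51 ± 0.07 with compound 6 (adjusted p = 4.79e-05). Nr1h4, the bile acid receptor, rose after withdrawal (0.37 ± 0.10, adjusted p = 0.0136) and with compound 6 (0.44 ± 0.10, adjusted p = 0.00299). The coactivators Ppargc1a and Ppargc1b rose with compound 6 (0.53 ± 0.15 and 0.47 ± 0.08, adjusted p = 0.014 and 0.000334), and Ppargc1b with compound 2 (0.41 ± 0.09, adjusted p = 0.0122). In all 3 rose and 1 fell after withdrawal, 5 rose with compound 6, and 2 rose and 1 fell with compound 2.

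Markers of other cells moved in part with these genes. Of 22 enterocyte markers 7 rose after withdrawal and none fell, 4 rose and 1 fell with compound 6, and 1 rose and 1 fell with compound 2. Krt20, of mature surface cells, rose by 0.70 ± 0.12 after withdrawal (adjusted p = 0.00105) and by 0.51 ± 0.12 with compound 6 (adjusted p = 0.00512). The enterocyte marker that fell was Mep1a, with compound 6 (-0.52 ± 0.10, adjusted p = 0.0014) and with compound 2 (-0.44 ± 0.12, adjusted p = 0.0379). Of 12 secretory markers tested 5 rose with compound 6 (median 0.25), 1 rose after withdrawal and none with compound 2. Among those 5 were the hormone gene Pyy (0.80 ± 0.16, adjusted p = 0.00151) and Clca1 of goblet cells (0.91 ± 0.16, adjusted p = 0.000531). Other Clca1 probes gave 0.47 and -0.32 with compound 6, so the probes of this gene differ in sign. Of 7 fibroblast markers tested 4 rose with compound 6, with Vim highest (0.55 ± 0.11, adjusted p = 0.00152), 1 with compound 2 and none after withdrawal. Of 10 stem cell markers 8 fell after withdrawal and 7 with compound 6, and none rose in either. With compound 2, 3 fell, among them Tnfrsf19 (-1.59 ± 0.23, adjusted p = 0.000412), and 1 rose, Smoc2 (1.74 ± 0.47, adjusted p = 0.0398). Another Tnfrsf19 probe gave -0.43 with compound 2. Lgr5, the receptor that marks crypt base stem cells, changed after withdrawal and with compound 6 by -2.51 ± 0.45 and -2.16 ± 0.45 (adjusted p = 0.00128 and 0.00209). The part of these markers in the members' changes was not tested. The stem cell and enterocyte lists moved by different amounts: after withdrawal the median was -1.61 for the stem cell list, 0.18 for the enterocyte list and 0.13 for the 10 members when each gene is read by its brightest probe.

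Cd36 is also made by endothelium, macrophages and fat cells. The endothelial markers Cdh5, Emcn, Erg and Cldn5 and the adipocyte markers Adipoq, Plin1, Fabp4, Lep and Cfd were not well above background on any array. The summed net Cy3 intensity of the 10 endothelial markers was 2898 to 4059 in vehicles D to G and 2387 to 3633 after withdrawal. The 10 leukocyte markers summed to 8143 to 14219 in vehicles D to G, 12602 to 16568 after withdrawal and 12282 to 16903 with compound 6, and 4 of the 9 tested rose with compound 6 and 1 after withdrawal. The 8 adipocyte markers summed to 972 to 2041 in vehicles D to G, 1771 to 2772 after withdrawal and 1035 to 1442 with compound 6. Of the 2 adipocyte markers tested, Cidec, a lipid droplet protein, rose after withdrawal (0.50 ± 0.15, adjusted p = 0.03). Of 5 endothelial markers tested, Tek rose (0.28 ± 0.07, adjusted p = 0.0126) and Ptprb fell (-0.62 ± 0.13, adjusted p = 0.00341) after withdrawal. The part of these markers in the Cd36 change was not tested.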

How the data were processed

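Gene expression was read from 21 dual-channel arrays. The deposited scanner files, quantified with Feature Extraction 10.7.3.1 per the file headers, give intensity as scanned for both dyes, with flags, and the log10 ratio of reference over sample that Feature Extraction made, per the file headers. The values of the series matrix, as deposited, are log2 with the sample as numerator, a scale and direction found by setting them against the scanner files (lowest correlation 0.902). No source used here names their normalisation.

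Of 62976 spots, 3671 control spots were left out and 157 non-uniform spots set to missing; none was saturated. In R 4.3.3 with limma 3.58.1 and data.table (version 1.17.8), intensities were corrected by normexp (offset 50), normalised by loess within arrays and averaged over the spots of a probe. A probe was tested if 3 or more arrays showed it well above background in Cy3. A limma model with a term for each group, and vehicles parted by set, was fitted to all arrays. Tests were two-sided and adjusted over 29631 probes. The fit was also run on simulated data with independent noise between arrays, so that run does not bear on arrays that share a letter. Whether letters pair samples was checked on deviations from group means: 21 same-letter pairs correlated at 0.19 to 0.73 (median 0.50), others at a median of -0.03, so the letter was also fitted as a replicate block. The block rests on this check, since the labels do not say what a letter shares.

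The members and lists were chosen with earlier results of these data known. Some results are not reported here. In other lists up to 4 passing genes a direction were named, by size of change, each by its brightest probe, and for likeness the 5 genes most correlated with the members' mean. The fits of each dye alone (normexp, quantile) to the reference, and to the sample with the block, were added after seeing the data. Figures used Python 3.11.15 and matplotlib 3.10.9.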

Additional observations from a re-analysis of the deposited data

Results flagged for a closer look

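Mttp after withdrawal was 6.61 in letter D and 6.64 to 6.65 in letters E, F and G, so D lay apart from the other 3. Its gap, as a share of the group's range (0.86), was past the cut used for 4 arrays. The gap is small beside the change from vehicle. Of 36 probe and group combinations of 4 arrays that were looked at in this way, this was the single one past the cut. Chance alone passes it in about 1 of 20 combinations, so 1 case among 36 is not unusual.

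The Apoa1 effect of compound 6 exceeded that of compound 9 by 0.40 ± 0.11 (limma, adjusted p = 0.0401), in a test of the difference itself. The effects were 0.28 ± 0.07 and -0.12 ± 0.08, from letters D to G and A to C. In Cy3 alone the difference was 1.26 (adjusted p = 0.189) and in Cy5 alone 0.91 (adjusted p = 0.672).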

How the results depend on the processing

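Over 2334 values of single probes under the alternatives, 2154 kept their side of the threshold, and 149 of these changed sign while passing in neither fit. Of the rest, 68 lost and 88 gained the threshold with the sign kept, and 24 turned sign while passing in 1 or both fits. The cause was not tested. The count of members after withdrawal (3) became 5 in Cy3 alone, 5 with the replicate block, 5 without the letter F arrays, and 8 in Cy3 with the block; leaving out 1 array gave 0 to 6. For compound 2 (1) it was 0 with Agilent's log ratios, in Cy3 alone, with the series matrix, without background correction and in a fit of only the compared arrays, 3 without the set term, 4 with the block, 5 in Cy3 with the block, and 0 to 1 leaving out 1 array. For compound 6 (3) it was 6 in Cy3 alone, 7 with normexp offset 16, 7 with the block, 9 in Cy3 with the block, 0 in a fit of only the compared arrays, and 2 to 5 leaving out 1 array. Between compounds 9 and 2 (1) it was 0 with Agilent's log ratios, Cy3 alone, the series matrix, no background correction, offset 16, no filter and only the compared arrays, 2 without letter F, 5 with the block, 3 in Cy3 with the block, and 0 to 1 leaving out 1 array. Between compound 6 and withdrawal (0) it was 3 in Cy3 alone, 4 with the block, 5 in Cy3 with the block and 0 to 1 leaving out 1 array. For the compound 6 effect less that of compound 2 (0) it was 2 in Cy3 with the block. Less that of compound 9 (1) it was 0 with Agilent's log ratios, Cy3 alone, the series matrix, offset 16, no filter and only the compared arrays, 3 with the block, 3 without letter F, 6 in Cy3 with the block, and 0 to 2 leaving out 1 array. Stricter filtering, 1 probe a gene and slide as a random block left these counts within 1.5 times.

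Only sign changes with a passing fit are named here. Signs turned in Cy3 alone, and with the block as well where it was fitted, for the brighter Apoc3 probe and for Apoc2. For the brighter Apoc3 probe this was with compound 2 (-0.53), between compounds 9 and 2 (0.44) and between compound 6 and withdrawal (-0.71). For Apoc2 the signs turned with compound 6 (-0.48) and between compound 6 and withdrawal (-0.42). With the block they also turned for the brighter Apoc3 probe with compound 6 (-0.48) and, with compound 2, for Apoa4 (0.75) and Apoc2 (-0.37). Between the vehicles, Cy3 alone turned Apoa1 (-2.06), Apoa4 (-1.26), Apoc2 (-0.17), the brighter Apoc3 (-0.19), Fabp1 (-0.39) and Fabp2 (-0.17). Agilent's log ratios turned the brighter Apoc3 with compound 2 (-0.019) and between compounds 9 and 2 (0.0042), and the dimmer Apob between vehicles (0.54), as did the series matrix (0.46), which also turned Fabp1 there (-0.28). Between vehicles these scales moved the median of all probes to -0.10 and -0.12. Among all called probes the share that was higher was 36.1% after withdrawal, 46.8% with Agilent's log ratios and 48.3% in Cy3 alone, for compound 2 it was 62.5% and 49.5% with Agilent's log ratios, and between compounds 9 and 2 31.1% and 45.6%. For the difference of the compound 6 and compound 2 effects it was 61.5%, and 74.9% in Cy3 alone. The number of arrays limits the precision throughout.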
